A study of Mus musculus with 6 samples.

Results

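Genes of the contractile apparatus of smooth muscle and of the actin cytoskeleton were followed in mouse embryonic fibroblasts (MEFs) in which Ube2o had been knocked down. The set holds 41 listed genes: actins, myosin chains, tropomyosins, calponins and transgelins, crosslinkers, LIM-domain adaptors, intermediate filament proteins and 2 regulators. Of these, 39 had a probe on the array, among 20289 genes with a probe in all, and Actg1 and Cnn3 had none here. Where a gene had several probes, the one with the highest mean signal stood for it.

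The cells were MEFs of the C57BL6 strain, from embryos at day 13.5, that stably expressed an shRNA (a short hairpin RNA that silences its target). There were 3 arrays of MEFs with Ube2o shRNA and 3 arrays of MEFs with GFP shRNA, the control, all hybridised to Illumina arrays. The submitters asked which genes respond to loss of UBE2O, a large ubiquitin-conjugating enzyme, and describe the 3 MEFs per shRNA as independent; whether each had its own embryo is not stated. The columns of all 3 Ube2o arrays carry the name sh41, so an effect of UBE2O loss and an effect of that hairpin cannot be told apart. Ube2o itself had signals of 668, 851 and 650 with Ube2o shRNA, against 1875, 1961 and 2091 with GFP shRNA, a log2 change of -1.45 (SE 0.12, limma adjusted p = 3.15e-07).

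Contraction outside striated muscle rests on myosin II filaments that pull on actin filaments. Phosphorylation of the myosin regulatory light chain by myosin light chain kinase starts it, and cGMP-dependent protein kinase opposes it in smooth muscle. Many genes of this apparatus are activated by serum response factor (SRF), which binds a DNA element called the CArG box together with the cofactors myocardin or MRTF. MRTF is held back by free actin monomers, so that filament assembly and the transcription of these genes are coupled. Fibroblasts carry the cytoplasmic part of the apparatus, and take on α-smooth muscle actin, transgelin and calponin when they turn into myofibroblasts.

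With Ube2o shRNA, at least 1 gene of every role except the intermediate filaments rose, led by Prkg1, Myl9 and Fhl1. Of the 39 genes, 13 were higher, 1 was lower and 25 did not pass the limma threshold (adjusted p of 0.05 over all 45281 probes). Over all genes, 6.86% passed, 2.91% higher and 3.95% lower, while 33.3% of these genes were higher and 2.56% lower. The set was chosen with earlier results of these data known, so these shares describe it and are not a test. Not all of the array can be read: 35 of the 39 lay above the inferred background on all 6 arrays, as did 9330 of all genes, of which 13% passed, 5.89% higher and 7.13% lower. The median log2 change was 0.26 for the 39 genes and 0.0027 for all genes tested. The groups did not overlap in the higher direction for 19 of the 39 and in the lower direction for 4, against 12.7% and 12.9% of all genes. Without Ube2o shRNA replicate 1, Ube2o shRNA replicate 3 or GFP shRNA replicate 3, 8 of the 39 were higher each time, against 1.86%, 1.79% and 1.88% of all genes. The RNA is of whole cultures, so more cells of a contractile kind and more RNA per cell cannot be told apart.

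The genes that rose were Prkg1, Myl9, Fhl1, Actg2, Acta1, Csrp2, Actn4, Tagln, Tpm2, Smtn, Tpm3, Pdlim7 and Fhl2, with log2 changes from 1.10 down to 0.40. Des was the 1 gene that fell. The genes that did not pass had log2 changes from -0.28 to 0.44, of which 17 were above 0 and 8 below. The within-group SD of the genes above background had a median of 0.072 with Ube2o shRNA and 0.086 with GFP shRNA on the log2 scale. In normalized values over the 35 genes, Ube2o shRNA replicate 2 was the lowest array of its group for 18 and GFP shRNA replicate 1 the lowest of its group for 19. In data simulated with as many arrays, 2-fold rises passed in 100% of cases and 1.5-fold rises in 52.9%.

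**Figure D1:**
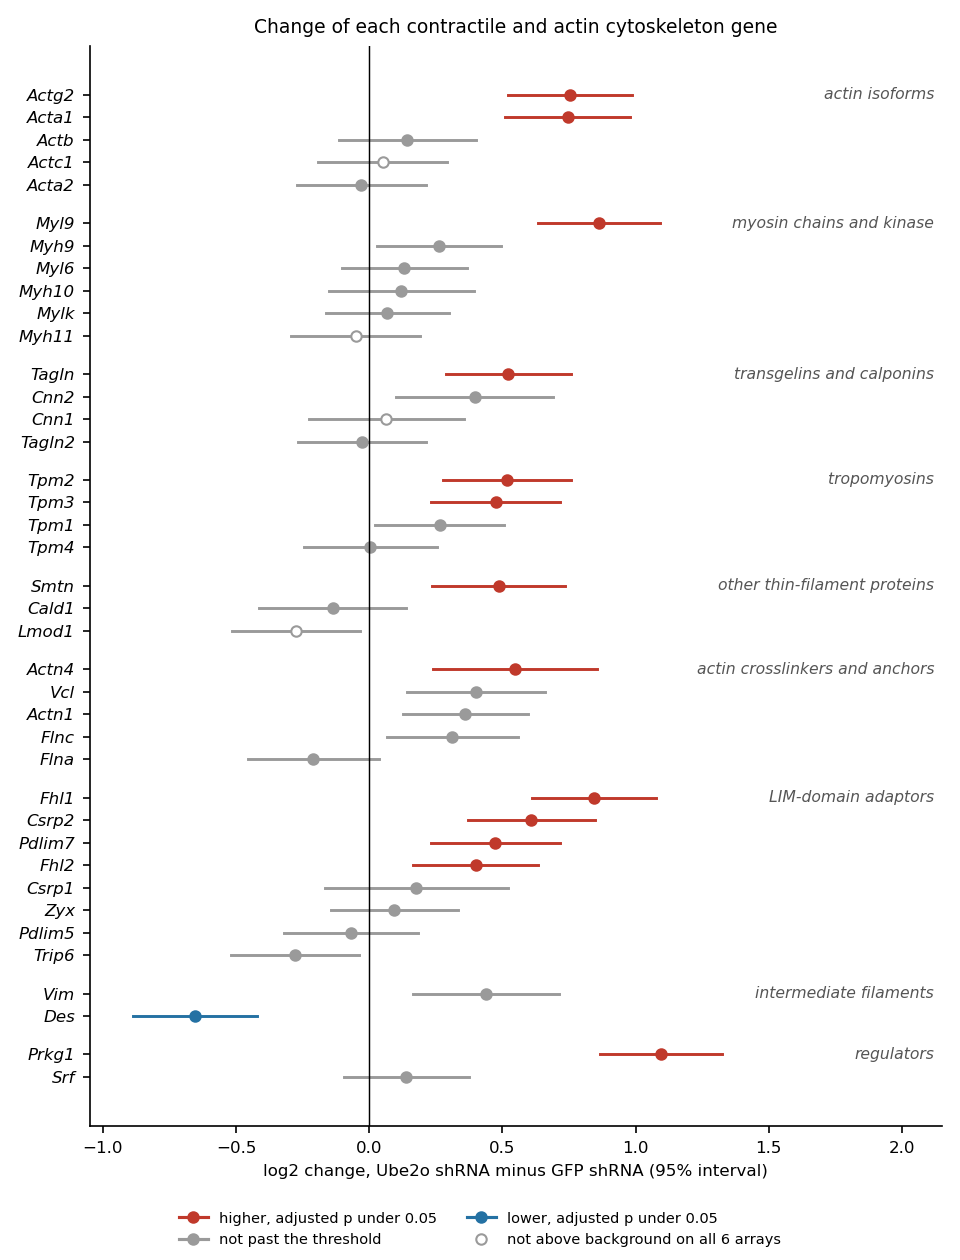
Log2 change (x axis, Ube2o shRNA minus GFP shRNA) of the 39 genes on the array, grouped by role, with 95% intervals from limma. Red points passed the threshold and were higher (13 genes), the blue point passed and was lower (Des), grey points did not pass, and open points were not above background on all 6 arrays.

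Of the actins, the filament subunits themselves, both enteric smooth muscle actin Actg2 and skeletal muscle actin Acta1 rose. Actg2 had signals of 8297, 10312 and 8434 with Ube2o shRNA, against 5631, 5885 and 6066 with GFP shRNA. Every Ube2o array lay above every GFP array, and the log2 change was 0.75 (SE 0.11, n = 3 arrays per group, limma adjusted p = 0.000359). Acta1 had signals of 277, 331 and 290 with Ube2o shRNA, against 208, 218 and 236 with GFP shRNA. These are dim values, but all lay above background, the groups did not overlap and the log2 change was 0.74 (SE 0.11, limma adjusted p = 0.000439). Cardiac actin Actc1 was not above background on any array. The actins are near-identical paralogs, and how far 1 probe also binds the RNA of another was not tested.

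Acta2, which encodes α-smooth muscle actin, the common marker of myofibroblasts, gave different answers by probe. Its brightest probe had signals of 35414, 33837 and 38711 with Ube2o shRNA, against 35478, 36316 and 39363 with GFP shRNA. The groups overlapped on this probe, and its log2 change was -0.03 (95% interval -0.27 to 0.21, limma adjusted p = 0.941). On each array it reached between 78.8% and 91.9% of the signal of the brightest probe of that array. The next probe had signals of 17870, 19469 and 20170 with Ube2o shRNA, against 13510, 14469 and 13480 with GFP shRNA, without overlap. The log2 changes of the 3 next brightest Acta2 probes were 0.58, 0.67 and 0.70, all past the threshold (limma adjusted p of 0.00594, 0.0027 and 0.00167). The dimmest Acta2 probe had a log2 change of 0.19 and did not pass. Of the 5 probes, only the brightest, which stands for the gene in the counts above, had a negative change, and whether its signal is limited by the top of the scale was not tested.

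Actb, the cytoplasmic β-actin, did not pass on any of its 5 probes. Its brightest probe had signals of 25804, 31005 and 28604 with Ube2o shRNA, against 24230, 29352 and 29610 with GFP shRNA, with overlap and a log2 change of 0.14 (95% interval -0.12 to 0.40). Its dimmest probes had log2 changes of 1.5 and 1.51 (limma adjusted p of 0.0596 and 0.0577). On the second dimmest, signals were 1574, 2407 and 1416 with Ube2o shRNA, against 298, 1969 and 712 with GFP shRNA, so the control arrays were far apart. On both of these probes GFP shRNA replicate 1 was the lowest array.

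**Figure D2:**
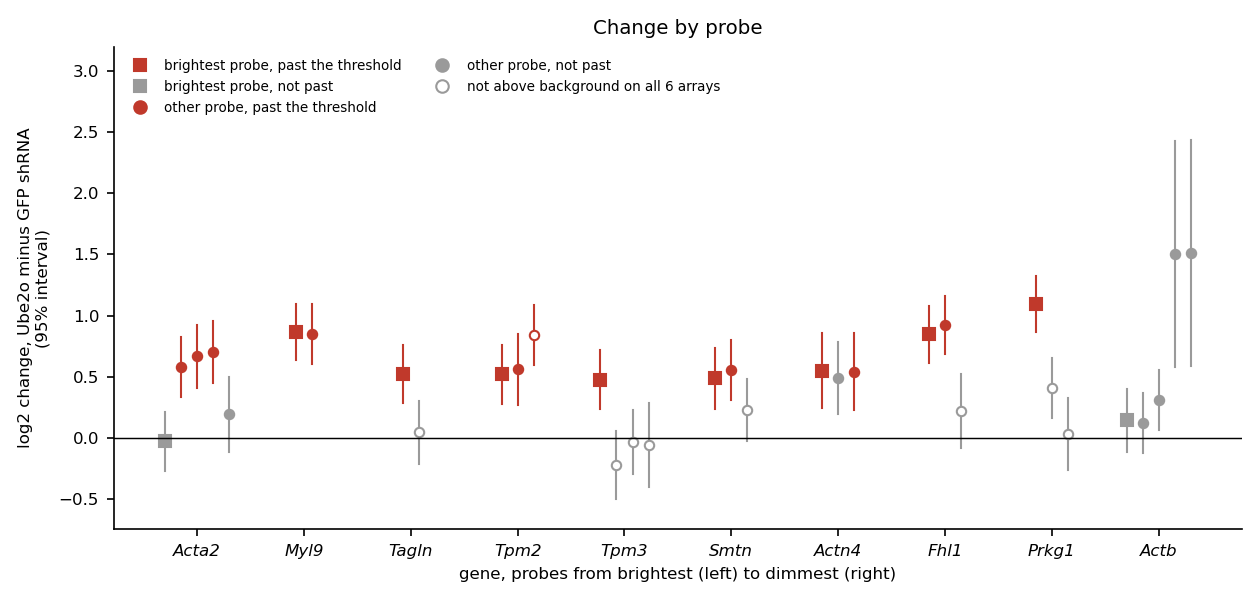
Log2 change (y axis, Ube2o shRNA minus GFP shRNA, 95% interval) of every probe of 10 genes with several probes, ordered from the brightest to the dimmest probe. Squares are the brightest probes and red marks passed the threshold; for Acta2 the brightest probe lies at -0.03 and the 3 next at 0.58 to 0.70.

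Among the myosin II chains, Myl9 rose and the heavy chains did not pass. Myl9 encodes the regulatory light chain that is phosphorylated to start contraction. It had signals of 4333, 5516 and 4776 with Ube2o shRNA, against 2669, 2841 and 3157 with GFP shRNA. The groups were well apart, with a log2 change of 0.86 (SE 0.11, limma adjusted p = 7e-05), and its second probe changed by 0.85. The kinase gene Mylk, whose product phosphorylates it, had a log2 change of 0.07 (95% interval -0.16 to 0.30) on its brightest probe and values of -0.07 and -0.02 on the other probes. Of the non-muscle heavy chains, Myh9 had a log2 change of 0.26 without overlap of the groups (limma adjusted p = 0.233) and Myh10 one of 0.12. The essential light chain gene Myl6 had a log2 change of 0.13. Myh11, the heavy chain that defines differentiated smooth muscle, had signals of 148, 157 and 151 with Ube2o shRNA, against 159, 149 and 169 with GFP shRNA. None of these lay above background, so Myh11 was not detectable in either group at this signal level.

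Of the transgelins and calponins, which bind along actin filaments, Tagln rose. Tagln, an early smooth muscle marker also called SM22α, had signals of 257, 332 and 293 with Ube2o shRNA, against 242, 234 and 241 with GFP shRNA. These values are dim, but all lay above background. The groups did not overlap, and the log2 change was 0.52 (SE 0.11, limma adjusted p = 0.0089), while its second probe was not above background on any array. Cnn1, the calponin of smooth muscle, had signals of 168, 163 and 155 with Ube2o shRNA, against 158, 169 and 161 with GFP shRNA. The groups overlapped, and 1 of the 3 Ube2o arrays, against 0 of the 3 GFP arrays, exceeded background (log2 change 0.06, SE 0.14, limma adjusted p = 0.886). Cnn2, a calponin found in many cell types, had a log2 change of 0.40 (limma adjusted p = 0.134), and Tagln2 one of -0.03.

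Tropomyosins wind along the actin filament and set its access to myosin, and 2 of 4 rose. Tpm2 had signals of 4885, 6557 and 5528 with Ube2o shRNA, against 4541, 3964 and 4376 with GFP shRNA, a log2 change of 0.52 (SE 0.11, limma adjusted p = 0.0106). Its other probes had log2 changes of 0.56 and 0.84, both past the threshold, at signals under 264 close to background. Tpm3 had signals of 3021, 3831 and 3479 with Ube2o shRNA, against 2280, 2825 and 2968 with GFP shRNA. Again every Ube2o array lay above every GFP array, with a log2 change of 0.47 (SE 0.11, limma adjusted p = 0.0197). The 3 dimmer probes of Tpm3 had log2 changes from -0.23 to -0.04, and none was above background on all 6 arrays. Tpm1 had a log2 change of 0.26 without overlap and did not pass (limma adjusted p = 0.251), and Tpm4 one of 0.0035.

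Of the other thin-filament proteins, Smtn, which encodes smoothelin, rose. Its signals were 1061, 1177 and 1163 with Ube2o shRNA, against 776, 985 and 943 with GFP shRNA. The groups did not overlap, the log2 change was 0.49 (SE 0.12, limma adjusted p = 0.0218), and its second probe changed by 0.55. Lmod1, the leiomodin that nucleates actin filaments in smooth muscle, exceeded background on 1 of the 3 Ube2o arrays, against all 3 GFP arrays. Its log2 change was -0.28 (limma adjusted p = 0.222), with every Ube2o array below every GFP array. Cald1, encoding caldesmon, had log2 changes from -0.14 to 0.19 over 4 probes, and the brightest of them is named through a RefSeq synonym of Cald1.

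Of the 5 crosslinkers and anchors of actin, 1 passed, and 4 had changes above 0. Actn4, a non-muscle α-actinin that bundles filaments, had signals of 2493, 2591 and 2736 with Ube2o shRNA, against 1467, 2357 and 2142 with GFP shRNA. The GFP arrays spread widely (SD 0.31 on the log2 scale), and the log2 change was 0.55 (SE 0.15, limma adjusted p = 0.0368). The adhesion anchor vinculin, Vcl, had a log2 change of 0.40 (limma adjusted p = 0.074), the α-actinin Actn1 one of 0.36 (0.0768) and the filamin Flnc one of 0.31 (0.161). In these 3 genes the normalized groups did not overlap. The X-linked filamin gene Flna had a log2 change of -0.21 (limma adjusted p = 0.402), with all Ube2o arrays below the GFP arrays.

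Of the LIM-domain adaptors, which sit at adhesions and along stress fibres, 4 of 8 were higher. This share of 50% was also that of the tropomyosins and of the regulators, against 2.91% of all genes. Fhl1 had signals of 3046, 3900 and 3393 with Ube2o shRNA, against 1847, 2102 and 2363 with GFP shRNA. All 3 Ube2o arrays lay far above the GFP arrays, with a log2 change of 0.84 (SE 0.11, limma adjusted p = 0.000102), and a second probe changed by 0.92. Csrp2, encoding a cysteine-rich protein known from smooth muscle, had signals of 3031, 3555 and 3327 with Ube2o shRNA, against 2392, 2248 and 2447 with GFP shRNA (log2 change 0.61, SE 0.11, limma adjusted p = 0.00302). Pdlim7, encoding a PDZ and LIM-domain adaptor, had signals of 2687, 3280 and 3066 with Ube2o shRNA, against 2368, 2397 and 2271 with GFP shRNA (log2 change 0.47, SE 0.12, limma adjusted p = 0.0212). For both genes the groups did not overlap. Fhl2 had signals of 2304, 2876 and 2423 with Ube2o shRNA, against 1819, 2147 and 2288 with GFP shRNA. It had the smallest change of the 13 genes (log2 change 0.40, SE 0.11, limma adjusted p = 0.0462). The zyxin gene Zyx, Csrp1 and Pdlim5 had log2 changes of 0.09, 0.18 and -0.07, and Trip6, of the zyxin family, had one of -0.28 (limma adjusted p = 0.211). For Trip6 all Ube2o arrays lay below the GFP arrays.

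Of the intermediate filament genes, 1 fell and the other did not pass. Des, which encodes desmin, the intermediate filament protein of muscle, had signals of 199, 227 and 215 with Ube2o shRNA, against 299, 296 and 336 with GFP shRNA. These signals are dim, but all exceeded background. The Ube2o arrays were all lower, and Des fell by 0.65 on the log2 scale (SE 0.11, limma adjusted p = 0.00126). Vim, encoding the vimentin of mesenchymal cells, had a log2 change of 0.44 without overlap and did not pass (95% interval 0.16 to 0.71, limma adjusted p = 0.0628).

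Of the regulators, Prkg1 had the largest change of all 39 genes. Prkg1 encodes the cGMP-dependent protein kinase that relaxes smooth muscle. Its signals were 494, 650 and 547 with Ube2o shRNA, against 303, 326 and 339 with GFP shRNA. The groups lay far apart, 2.14-fold, with a log2 change of 1.10 (SE 0.11, limma adjusted p = 4.38e-06). Its second probe, at a signal near background, had a log2 change of 0.41 and did not pass (limma adjusted p = 0.055). The third Prkg1 probe was not above background on any array and had a log2 change of 0.03. Srf, the transcription factor of these genes, had signals of 1326, 1818 and 1423 with Ube2o shRNA, against 1452, 1484 and 1545 with GFP shRNA. The groups overlapped, and the log2 change of 0.14 (95% interval -0.10 to 0.37) did not pass (limma adjusted p = 0.611).

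**Figure D3:**
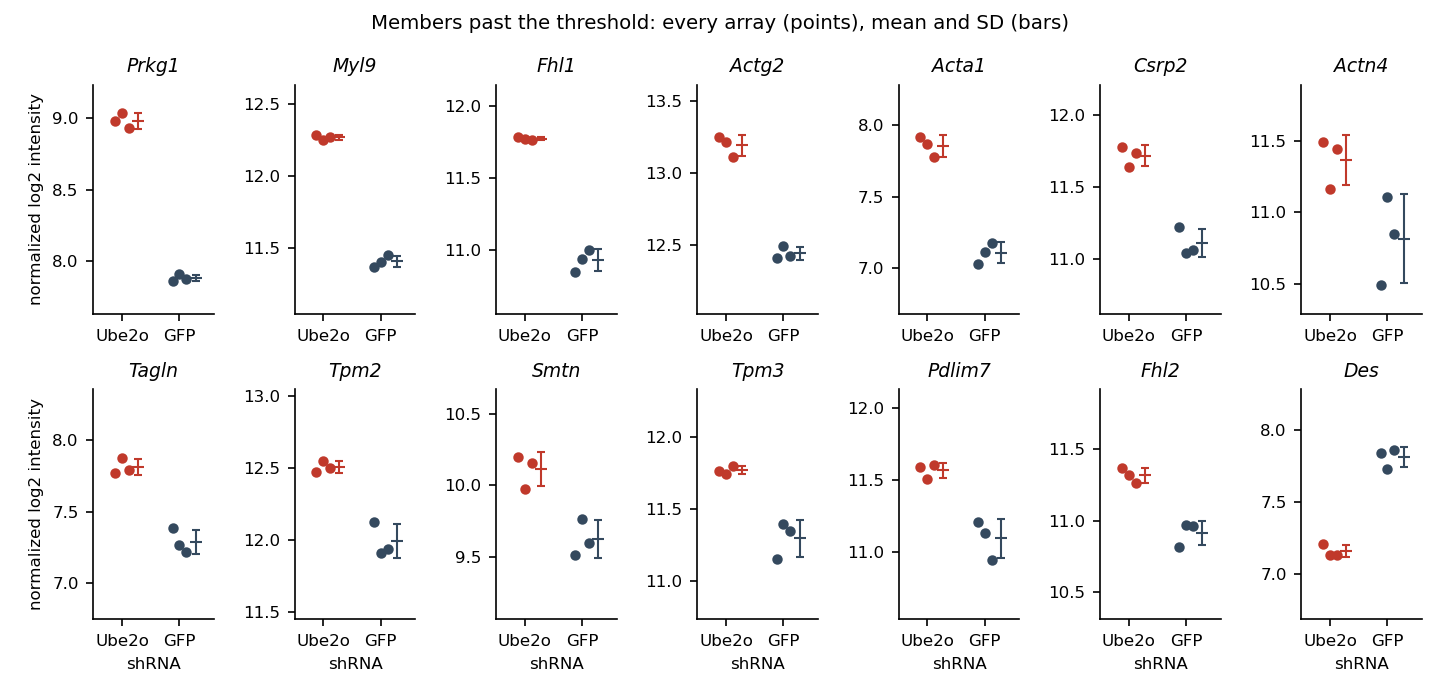
Normalized log2 intensity (y axis) of the 14 genes past the threshold on each of the 3 Ube2o shRNA arrays and 3 GFP shRNA arrays, with mean and SD beside the points; each panel spans the same log2 range. In every panel the groups do not overlap, and Des is the 1 gene with lower Ube2o arrays.

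The promoters of these genes were searched for the CArG box that SRF binds, 6 letters that are A or T between CC and GG, a pattern that is the same on both strands. RefSeq promoter windows (GRCm38.p6, 250 bases before to 50 bases after the start) were found for 36 of the 41 listed genes, and not for Actb, Actg2, Myh11, Tagln and Csrp2. A CArG box stood in the window of 11 of the 36 genes (30.6%), against 1.81% of all 27025 genes with a window. These genes are in part textbook targets of SRF, so the share describes the list and not the response. Among genes with a window, the box stood in 4 of 10 that were higher (Acta1, Myl9, Fhl1 and Fhl2) and in 6 of 23 that did not pass (Actc1, Trip6, Cnn2, Myl6, Vcl and Srf). The unmeasured Actg1 also held one. Over all genes on the array the box stood in 2.37% of the promoters of higher genes and 1.63% of those of genes that did not pass. The letters GGAATG, the core of the element bound by TEAD factors, were searched on both strands and stood in 14 of the 36 windows (38.9%), against 16.6% of all genes. They stood in 3 of 10 promoters of higher genes (30%) and 11 of 23 of genes that did not pass (47.8%), and no such match in these genes overlapped a CArG box. A match is a description of the letters only.

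The 180 bases before the start of the 4 higher genes with a box, and of Srf itself, are shown so that the box (in capitals) can be seen in its place. They run 5′ to 3′ along the gene. Acta1 is chr8:123894776-123894955 on the minus strand, Myl9 chr2:156775284-156775463 on the plus strand and Fhl1 chrX:56779503-56779682 on the plus strand. Fhl2 has 2 starts on the minus strand, at chr1:43196762-43196941 and chr1:43163962-43164141, and Srf is chr17:46556163-46556342 on the minus strand.
Acta1: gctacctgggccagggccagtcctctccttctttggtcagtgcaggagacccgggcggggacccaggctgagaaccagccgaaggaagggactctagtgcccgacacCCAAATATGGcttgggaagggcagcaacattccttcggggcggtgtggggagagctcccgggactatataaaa
Myl9: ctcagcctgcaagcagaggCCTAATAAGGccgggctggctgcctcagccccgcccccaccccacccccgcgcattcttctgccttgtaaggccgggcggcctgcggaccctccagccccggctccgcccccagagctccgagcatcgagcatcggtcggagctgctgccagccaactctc
Fhl1: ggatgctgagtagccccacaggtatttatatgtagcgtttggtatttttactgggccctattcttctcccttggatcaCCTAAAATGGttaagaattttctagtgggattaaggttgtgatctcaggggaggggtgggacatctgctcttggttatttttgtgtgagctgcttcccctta
Fhl2, first start: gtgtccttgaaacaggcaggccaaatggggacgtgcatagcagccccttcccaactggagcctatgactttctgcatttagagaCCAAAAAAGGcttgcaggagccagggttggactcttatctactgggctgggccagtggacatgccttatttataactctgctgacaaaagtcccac
Fhl2, second start: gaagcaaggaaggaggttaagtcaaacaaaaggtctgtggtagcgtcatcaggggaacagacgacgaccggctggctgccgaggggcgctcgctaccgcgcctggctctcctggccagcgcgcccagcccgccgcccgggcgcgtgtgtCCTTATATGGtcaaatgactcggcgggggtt
Srf: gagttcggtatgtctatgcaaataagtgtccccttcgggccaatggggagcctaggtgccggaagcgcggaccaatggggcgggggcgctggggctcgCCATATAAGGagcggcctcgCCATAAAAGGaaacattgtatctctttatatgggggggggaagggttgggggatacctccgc

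The box of Acta1 lies 64 to 73 bases before the start, that of Myl9 152 to 161 bases and that of Fhl1 93 to 102 bases. Fhl2 holds 1 box at each start, 87 to 96 and 22 to 31 bases before it. Srf holds 2 boxes, 73 to 82 and 53 to 62 bases before the start, and Srf itself did not pass, as given above. Acta2, whose probes disagreed, had no full match, but held CCCTATATGG and CCTTGTTTGG, each 1 letter off the pattern. They lie 75 to 84 bases (chr19:34255448-34255457) and 25 to 34 bases (chr19:34255398-34255407) before the start, on the minus strand. Matches with exactly 1 letter off, searched after the full matches were seen, stood in 12 of the 36 windows (33.3%), against 22.5% of all genes.

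Genes that regulate or adjoin the apparatus were read next. Myocd, the gene of myocardin, was not above background on any array, Mrtfa lay above it on 2 of 3 arrays of each group, and Mrtfb had a log2 change of 0.04. Of 31 genes of actin polymerisation and turnover, 2 rose, the actin monomer-binding gene Cap1 (log2 change 0.46) and the filament-capping gene Capza2 (0.50). In the same list 3 fell, the filament-severing cofilin gene Cfl1 (-0.57), the filament-elongating Enah (-0.56) and the bundling fascin gene Fscn1 (-0.49). That list had a median log2 change of 0.08. Capza2 and Cfl1 were dim, with signals of 186 to 269 and 177 to 291, but above background on all arrays.

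Of 25 measured focal adhesion partners, 3 rose and 1 fell. Pdlim1, a LIM-domain adaptor gene related to Pdlim7, rose by 0.87 on the log2 scale (SE 0.11, limma adjusted p = 9.59e-05), Lims2, a partner of integrin-linked kinase, by 0.67 and Tgfb1i1, encoding the paxillin relative Hic-5, by 0.42. Pdlim2 fell by 0.62. The median of the list was 0.05. Of 21 further SRF target genes, 2 rose, the matricellular gene Ccn2 (0.56) and Tgfb1i1, which is on both lists, and 2 fell, Ankrd1 (-0.78) and the survival gene Mcl1 (-0.58), with a median of 0.08. Calls made up 16.1% of the turnover list, 16% of the adhesion list and 19% of the SRF target list, against 35.9% of the contractile and cytoskeletal genes, 6.86% of all genes and 13% of genes above background on all 6 arrays. Above background on all arrays were 29 of 31 genes of the turnover list. For the adhesion list it was 21 of 25, and for the SRF target list 13 of 21. All these lists were chosen with earlier results of the data known, and differences between the shares of calls were not tested.

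Fibroblast markers were detected throughout, and most defining markers of muscle were not. All 14 measured fibroblast markers lay above background on every array, with a summed signal of 75154 to 95069 with Ube2o shRNA and 85140 to 94941 with GFP shRNA. Of 12 markers of smooth muscle and mural cells, 4 did so and 6 lay above background on no array, and the 1 that passed, the mural receptor gene Notch3, was lower (log2 change -0.98, limma adjusted p = 0.00032). Summed over that list, the signal was 2696 to 2940 with Ube2o shRNA and 3095 to 3385 with GFP shRNA. Of this sum, Pdgfrb, which is also on the fibroblast list, made up 877 to 999 with Ube2o shRNA and 1034 to 1284 with GFP shRNA. The sums in this paragraph add deposited signals, not normalized between arrays, and include genes not above background. They are no measure of cell content. Of 18 skeletal muscle markers, 2 lay above background on all arrays and 8 on none, the defining Myod1 among them, and of 10 cardiac markers all 10 lay above background on none. Summed signals were 2622 to 3009 with Ube2o shRNA and 2893 to 3149 with GFP shRNA for skeletal muscle, and 1437 to 1555 with Ube2o shRNA and 1521 to 1628 with GFP shRNA for cardiac muscle. In limma no skeletal or cardiac marker passed, with 3 and 0 of them under an unadjusted p of 0.05. Within the fibroblast list the growth factor receptor gene Pdgfra fell (log2 change -0.76) and the transcription factor gene Prrx1 rose (0.46). Of 12 leukocyte markers 3 fell, Cd74, Aif1 and Cd14, with a summed signal of 2300 to 2733 with Ube2o shRNA and 3343 to 3643 with GFP shRNA. Of 10 endothelial and 10 epithelial markers, 7 and 6 exceeded background on no array, and in limma none passed, with 1 of each list under an unadjusted p of 0.05. Of 9 neural markers, 2 rose, the cytoskeletal genes Map2 and Nes. In that list 3 changes were above 0 and 6 below, with a median log2 change of -0.01. Over all genes, 2.91% were higher and 3.95% lower. The part of these markers in the changes of the contractile genes was not tested.

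The median of all genes differed between chromosomes, and members lie on those with raised or lowered medians. Over genes above background, the median log2 change was 0.29 on chromosome 12, 0.23 on chromosome 19, 0.16 on chromosome 4 and -0.19 on the X chromosome. Prkg1, on chromosome 19, still passed once its chromosome's median was subtracted (log2 change 0.87, limma adjusted p = 7.01e-05). Fhl1 rose on an X chromosome whose genes were lower, and its change was 1.04 after subtraction, while Flna, also X-linked, was left with -0.02. Tpm2, on chromosome 4, and Fhl2, on chromosome 1, no longer passed (log2 changes of 0.36 and 0.36, limma adjusted p of 0.085 and 0.074). Actn1, on chromosome 12, was left with 0.07. In that setting 11 of the 39 genes were higher and 1 lower, against 2.18% and 4.07% of all genes.

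**Figure D4:**
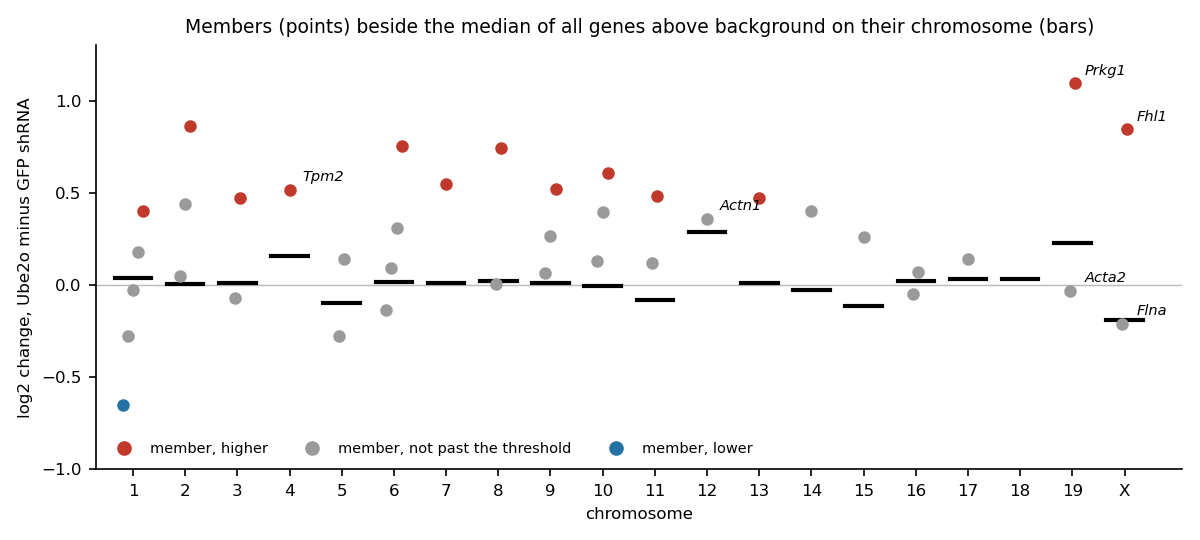
Log2 change (y axis, Ube2o shRNA minus GFP shRNA) of the 39 genes by chromosome (points), beside the median of all genes above background on that chromosome (black bars). Chromosomes 12, 19 and 4 have raised medians and the X chromosome a lowered one, and Prkg1 and Fhl1 lie well above theirs.

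Prkg1, Myl9, Fhl1, Actg2 and Acta1 were higher, and Des was lower, past the threshold in all 18 other settings that were run. The other 8 calls depended on the setting, passing in from 17 of the 18 (Csrp2) down to 7 of the 18 (Fhl2). Fhl2 did not pass in any of the fits with 1 array left out. With a background offset of 16 the 5 genes just named were the only ones of the 39 that were higher, against 0.527% of all genes, and with median scaling 7 were (1.57% of all genes; 318 genes higher and 1006 lower, against 591 and 801). With no background correction 20 were higher, Tpm1, Vim, Vcl, Actn1, Myh9, Flnc and Cnn2 being added, against 6% of all genes.

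**Figure D5:**
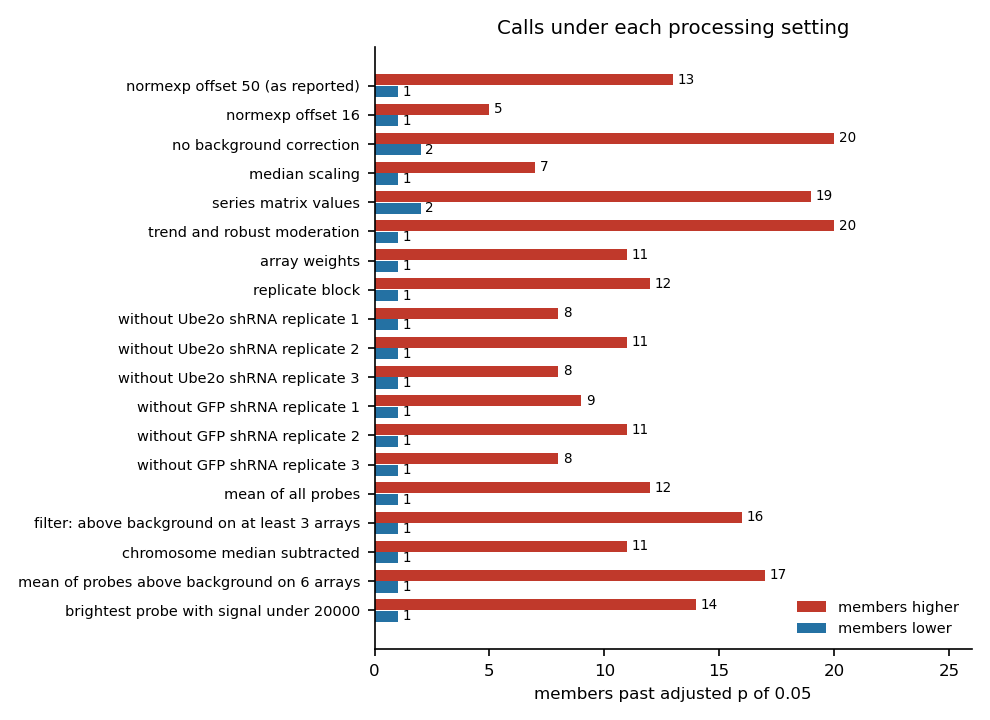
Number of the contractile and actin cytoskeleton genes past the threshold (x axis) that were higher (red) or lower (blue) with Ube2o shRNA under each processing setting (rows). The higher count runs from 5 with an offset of 16 to 20 with no background correction or with trended, robust moderation, and the lower count is 1 or 2.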

How the data were processed

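Per the labels' protocols, total RNA was amplified to biotinylated cRNA (Illumina TotalPrep) for single-colour Illumina arrays. The authors deposited linear probe intensity, not normalized between arrays (median 153 to 174), and a series matrix of log2 values, which were quantile normalized by their values (sorted values equal within 0.001). For scanner software and the authors' steps: not given in the sources used here. Arrays were grouped by title; 1 label of the Ube2o arrays says siRNA where the titles say shRNA. The design text calls the MEFs independent without saying how, so the p-values rest on array-to-array spread, possibly only technical.

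The intensity was corrected with saddle-point normexp (offset 50, which compresses changes of dim genes), quantile normalized and taken to log2. All 45281 probes were fitted with limma 3.58.1 in R 4.3.3 (lmFit, eBayes, two-sided, Benjamini-Hochberg), Ube2o shRNA minus GFP shRNA. Changes and SDs are on that log2 scale; signals are the deposited intensity. Background was inferred per array from the mode of log2 signal and the spread below it (p under 0.05); 43.1% to 44.9% of probes lay above it. Arrays correlated at 0.991 to 0.992 within groups and 0.983 to 0.986 between them. The platform annotation, updated through RefSeq (GRCm38.p6) identifiers, accessions and unique synonyms, gave 35784 probes 1 symbol, 0 several and 9497 none. On simulated data of 45281 probes with 200 changed, 3 false calls were made, and with no probe changed 0.

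The members and lists were chosen with earlier results of these data known. All members are named, with values per array for those past the threshold and for Srf, Acta2, Tagln, Cnn1, Myh11 and Actb; from pathway lists, up to 4 genes past the threshold in each direction are named. Myocd, Mrtfa, Mrtfb and markers were named besides. The result of 1 further list is not reported here. Alternatives covered background correction, scaling, the series matrix values, moderation, array weights, the replicate block, each array left out, the probe, a filter and chromosome medians; the 2 probe choices limited to brighter or less bright probes were added after the data were seen.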

Additional observations from a re-analysis of the deposited data

How the results depend on the processing

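Over 18 alternative settings, 594 of the members' values kept their direction and side of the threshold, 46 fell short of it, 30 newly passed and 25 turned their sign, in 10 genes that had not passed. Of these 25 values, 3 passed, all of Acta2: its log2 change was 0.42 with the mean of all probes, 0.42 with the mean of probes above background on 6 arrays and 0.67 with the brightest probe under a signal of 20000. The others did not pass. With the mean of all probes, Actc1 had -0.079, Mylk -0.0053, Cald1 0.053 and Pdlim5 0.038. With the mean of probes above background on 6 arrays, Mylk had -0.0053, Cald1 0.053 and Pdlim5 0.056. With median scaling, Mylk had -0.030, Tpm4 -0.086 and Zyx -0.013. Tpm4 had -0.0073 in the series matrix values, -0.030 with array weights and -0.016 with chromosome medians subtracted. Leaving out 1 array gave -0.082 to 0.039 for Acta2, -0.0026 to 0.108 for Actc1, -0.095 to 0.038 for Tagln2, -0.087 to 0.162 for Cnn1, -0.092 to 0.053 for Tpm4, -0.040 to 0.374 for Csrp1 and -0.153 to 0.026 for Pdlim5. The members' higher count was 5 with an offset of 16, 20 with no background correction, 7 with median scaling and 20 with trended, robust moderation. The lower count was 2, Trip6 joining Des, when background correction was left out and in the series matrix values. Leaving out 1 array gave 8 to 11 higher and 1 lower. Over all genes, higher and lower counts were 107 and 280 with the offset of 16, 1217 and 1294 with no background correction and 1204 and 1284 in the series matrix values. Higher counts were 318 with median scaling, 992 with trended, robust moderation and 1000 with the filter on 3 arrays. Leaving out 1 array gave 359 to 408 higher and 561 to 616 lower. The cause of these shifts was not tested. Leaving out an array also meant fewer samples, and the filter fewer probes.

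With the replicate number as a block, 12 members (30.8%) were higher and 1 (2.56%) lower, against 2.71% and 3.85% of all genes. Fhl2 was lost in that setting (limma adjusted p = 0.0691). Deviations from the group mean correlated at 0.026, -0.12 and 0.079 for same-numbered arrays, and at -0.14 to 0.10 for unlike-numbered ones. With 3 arrays per group these values cannot decide whether the numbers pair the arrays. The 3 arrays per group limit every value, and Actc1 and Myh11 lay above background on no array.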
